A study of Mus musculus with 12 samples.

Results

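The glucocorticoid receptor (Nr3c1), the mineralocorticoid receptor (Nr3c2), the enzyme that regenerates their ligand (Hsd11b1) and 7 genes that glucocorticoids induce (Fkbp5, Tsc22d3, Sgk1, Zbtb16, Cdkn1a, Pdk4 and Sult1a1) were followed through RNA-seq of the mouse dorsal raphe (DR). They were chosen by name, 10 of the 24421 genes listed in the count files, and all 10 passed the filter on low counts, as did 15453 genes in all. The 12 animals were littermates on a mixed C57BL/6 x 129 background, single-housed, aged 8 to 16 weeks when the study's experiments began, with 1 library each. Controls were Sert Cre/+; Stat3 fl/+ (n = 4, 2 females and 2 males) and STAT3 KO mice were Sert Cre/+; Stat3 fl/fl (n = 8, 4 females and 4 males). All 12 mice carried Cre under control of the serotonin transporter gene, so the deletion was directed to SERT-expressing cells. The controls, with 1 floxed allele, can lose 1 copy in these cells. The paper says that full loss of STAT3 could not be shown for each serotonergic cell. The tissue was a square punch below the aqueduct holding every cell type of that area, and in such bulk samples fewer cells of a type and less RNA per cell cannot be told apart.

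Glucocorticoids, mainly corticosterone in mice, cross the blood-brain barrier and bind the glucocorticoid receptor, which is held in a chaperone complex in the cytoplasm, moves to the nucleus and binds DNA at paired half-sites. The mineralocorticoid receptor binds the same hormone with higher affinity and is occupied at lower hormone levels. STAT3, a transcription factor switched on by cytokine receptors, can bind the glucocorticoid receptor, and the DR, the main source of serotonin in the forebrain, is a stress-responsive region. The labels and methods give no corticosterone level, time of day or interval since handling for the single animals.

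Between 24379588 and 29645210 reads were counted on genes per library, and 3 counts, the smallest level taken as measurable, equalled 0.101 to 0.123 CPM (counts scaled by the library's total on genes), a floor for counting error only. The serotonergic genes Tph2 (539 to 883 CPM) and Slc6a4 (150 to 410 CPM) were high in each library. Counted over its whole length, Stat3 averaged 65.9 CPM in the 4 controls (SD 1.26) against 66.6 CPM in the 8 STAT3 KO mice (SD 2.90). Because its deleted exons are a small stretch of the gene and the other cells of the punch keep it, this value does not check the labels.

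DNA upstream of the responsive genes is shown first because these are the stretches in which receptor-binding letters can be looked for. The 250 bases before each annotated start site were taken from RefSeq (GRCm38.p6), in which 8 members had 16 start sites. Capitals mark the glucocorticoid half-site AGAACA or its reverse complement TGTTCT, and the paired form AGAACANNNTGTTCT, which contains both. The STAT letters TTCNNNGAA, which read the same on both strands and can share bases with a half-site, are in capitals as well, and no such overlap occurs in the stretches shown. Sgk1 (serum- and glucocorticoid-regulated kinase, chr10:21882184-21999903, + strand) has several start sites, and the one numbered 5 here (chr10:21993640-21993889, + strand) holds the paired form from base -189 and a further half-site from -242. Start site 1 (chr10:21881934-21882183, + strand) holds a half-site and the STAT letters. Start site 2 of Tsc22d3 (chrX:140600523-140600772, - strand), the single one of Sult1a1 (chr7:126676419-126676668, - strand) and, as an induced gene without these letters in the window, Fkbp5 (chr17:28486150-28486399, - strand) are set beside them.
Sgk1, start site 5: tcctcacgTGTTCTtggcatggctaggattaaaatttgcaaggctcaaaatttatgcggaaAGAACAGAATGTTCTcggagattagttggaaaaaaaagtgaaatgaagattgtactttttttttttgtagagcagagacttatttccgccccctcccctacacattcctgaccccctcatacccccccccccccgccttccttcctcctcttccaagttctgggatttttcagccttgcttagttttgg
Sgk1, start site 1: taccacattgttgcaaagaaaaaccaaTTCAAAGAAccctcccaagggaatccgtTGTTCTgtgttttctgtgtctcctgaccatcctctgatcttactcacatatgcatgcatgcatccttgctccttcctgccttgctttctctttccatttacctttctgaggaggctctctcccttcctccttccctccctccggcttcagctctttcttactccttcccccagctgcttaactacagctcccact
Tsc22d3, start site 2: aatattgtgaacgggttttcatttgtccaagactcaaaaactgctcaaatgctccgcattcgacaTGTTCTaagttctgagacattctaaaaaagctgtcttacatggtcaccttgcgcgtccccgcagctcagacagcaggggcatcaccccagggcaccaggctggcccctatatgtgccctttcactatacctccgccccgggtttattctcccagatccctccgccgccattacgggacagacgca
Sult1a1: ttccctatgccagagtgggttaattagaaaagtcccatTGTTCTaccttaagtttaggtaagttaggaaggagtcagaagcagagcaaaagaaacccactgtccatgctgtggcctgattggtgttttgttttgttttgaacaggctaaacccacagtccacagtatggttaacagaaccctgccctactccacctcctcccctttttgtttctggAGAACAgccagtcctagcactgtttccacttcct
Fkbp5: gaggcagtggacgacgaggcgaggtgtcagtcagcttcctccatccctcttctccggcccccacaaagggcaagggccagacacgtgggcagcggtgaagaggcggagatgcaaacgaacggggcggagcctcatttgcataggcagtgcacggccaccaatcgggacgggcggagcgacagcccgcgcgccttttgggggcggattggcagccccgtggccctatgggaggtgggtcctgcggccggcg

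The paired form was in 3 of 32851 promoters of this length (0.0091%), a single half-site on either strand in 16.1% and the STAT letters in 7.02%. Start site 4 of Sgk1 holds AGAACA from base -13, and start site 3 of Tsc22d3 holds the STAT letters from -207. The windows of Fkbp5, Pdk4, Cdkn1a, Hsd11b1 and Nr3c2 hold none of the 3 sets of letters, which says only that the letters are not in these 250 bases. The gene counts do not show which start site was used, and a match is a description of the sequence and no measured binding.

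Per kb of exon, Tsc22d3 was the most abundant member at 32.4 CPM per kb (mean of 12 animals, 28.4 to 38.0), followed by Sgk1 at 18.8 (10.5 to 33.1) and Nr3c1 at 14.9 (13.6 to 16.9). Sgk1 was above Nr3c1 in 7 of 12 animals, so these neighbours do not differ beyond their spread, while Tsc22d3 was above Sgk1 in 12 of 12. Each of these 3 genes was above the remaining members by their means, and the range of Nr3c1 did not meet that of Hsd11b1, the next in order. Hsd11b1 (5.73 CPM per kb), Nr3c2 (4.57), Sult1a1 (3.88), Pdk4 (3.83), Cdkn1a (3.32), Zbtb16 (2.85) and Fkbp5 (2.67) formed a lower group in which the range of each gene overlapped that of the next. The glucocorticoid receptor was therefore the more abundant of the 2 receptor mRNAs in this tissue, with its lowest animal at 13.6 CPM per kb and the highest value of Nr3c2 at 5.33.

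The first comparison asked whether the receptors and their ligand-regenerating enzyme differed between genotypes. Nr3c1 (chr18:39410545-39519421, - strand of GRCm38, GENCODE vM21, as for all positions of genes) was the steadiest member. It was read at 106, 114, 115 and 119 CPM in the controls, and at 105 to 130 CPM with a median of 113.5 in STAT3 KO mice. The control values lay inside the range of the KO values, and the coefficient of variation over the 12 animals was 6.0%. In edgeR's quasi-likelihood test the log2 fold change was -0.0081 ± 0.051 (SE, adjusted p = 0.992, Benjamini-Hochberg over 15453 genes).

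Nr3c2 (chr8:76899442-77245012, + strand) was at 25.7, 30.1, 30.1 and 34.5 CPM in controls. In STAT3 KO mice it ranged from 22.8 to 33.3 CPM with a median of 29.9. The lowest animal was STAT3 KO 6, and the groups overlapped over most of their range. Hsd11b1 (chr1:193221634-193264075, - strand), whose product turns the inert keto form of corticosterone back into the active hormone inside the cell, was at 19.0, 27.2, 27.3 and 31.4 CPM in controls. STAT3 KO mice lay between 15.0 and 32.8 CPM, with a median of 24.1. The lowest animal of each genotype, control 3 and STAT3 KO 6, were also the animals with the highest Sgk1, described next. The log2 fold change of Hsd11b1 was -0.18 ± 0.16 (SE, adjusted p = 0.859, edgeR), with a 95% interval of -0.53 to 0.17. It was -0.087 without control 13 and -0.31 without control 3.

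Of the responsive genes, Sgk1 had the widest range in CPM. Controls were at 69.0, 83.2, 98.1 and 157.8 CPM, the highest being control 3. STAT3 KO mice were at 51.7, 59.9, 70.5, 73.9, 78.9, 82.5, 118.8 and 162.3 CPM, the highest being STAT3 KO 6 and the next STAT3 KO 15. One animal of each genotype thus stood at about the same high level, and the means of 102 ± 39.0 CPM (SD, n = 4) and 87.3 ± 36.2 CPM (SD, n = 8) overlapped widely. The fitted log2 fold change of Sgk1 was -0.25 ± 0.27 (SE, adjusted p = 0.893, edgeR), with a 95% interval of -0.82 to 0.33. Its sign rested on control 3, since without that animal it was 0.0499 ± 0.27 (SE, adjusted p = 0.997, edgeR).

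Fkbp5 (chr17:28399094-28517527, - strand), a co-chaperone that lowers the receptor's affinity for its hormone and closes a short feedback loop, was at 24.4, 25.5, 25.8 and 28.8 CPM in controls. In STAT3 KO mice it was at 21.0, 22.3, 22.6, 22.8, 22.8, 23.3 and 26.2 CPM in 7 animals and at 37.1 CPM in STAT3 KO 6. Among the other 7 KO mice, 6 were below each control and only STAT3 KO 15 was not. The log2 fold change was -0.10 ± 0.12 (SE, adjusted p = 0.906, edgeR) with all animals. It was -0.21 ± 0.063 without STAT3 KO 6 (SE, adjusted p = 0.659, edgeR). Without STAT3 KO 6 and control 3, which was tried after the data were seen, it was -0.15 ± 0.064 (SE, adjusted p = 0.998, edgeR). In both, STAT3 KO 6 is left out for its own high value.

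Tsc22d3 (chrX:140539528-140600659, - strand), which encodes the anti-inflammatory leucine zipper protein GILZ, was at 128, 133, 157 and 165 CPM in controls. STAT3 KO mice ranged from 123 to 156 CPM with a median of 138.8, inside the span of the controls but for the lowest KO animals. Sult1a1 (chr7:126672865-126676432, - strand), a cytosolic sulfotransferase of phenolic compounds, was at 5.06, 5.11, 5.81 and 5.95 CPM in controls. It was at 3.93 to 5.90 CPM in 7 STAT3 KO mice and at 13.3 CPM in STAT3 KO 6, which stood alone. Cdkn1a (chr17:29090976-29100727, + strand), an inhibitor of the cell cycle kinases, was at 9.39, 9.61, 13.4 and 15.0 CPM in controls. In STAT3 KO mice it ran from 8.92 to 20.2 CPM with a median of 10.4, and the highest was again STAT3 KO 6. Zbtb16 (chr9:48654297-48836222, - strand), a zinc finger transcription factor, was at 10.5, 11.4, 13.4 and 21.4 CPM in controls and between 8.99 and 22.5 CPM in STAT3 KO mice. Its order among controls was a different one, since control 4 and not control 3 was the highest. Control 4 also had the highest sum of forebrain excitatory neuron markers (250.3 CPM, STAT3 KO mice 15.6 to 78.2). Pdk4 (chr6:5483351-5496309, - strand), a kinase that holds back pyruvate oxidation, was at 11.1, 11.6, 12.9 and 17.6 CPM in controls and between 10.97 and 14.8 CPM in STAT3 KO mice, and here control 3 was the highest of all 12.

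**Figure D1:**
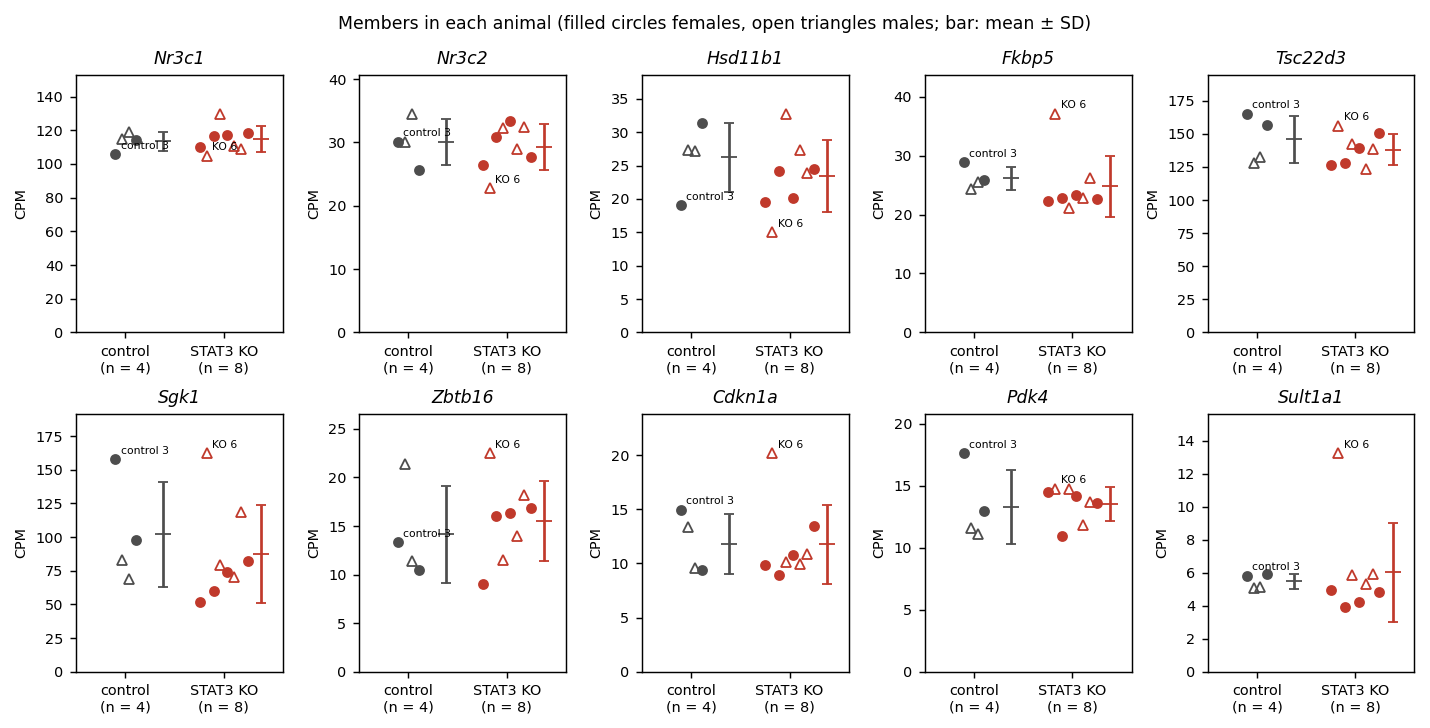
CPM (vertical axis, from 0) of the 10 genes in each animal, controls in grey (n = 4) and STAT3 KO mice in red (n = 8), with the mean and SD beside the points. Genotypes overlap for each gene, and STAT3 KO 6 is the highest animal for Fkbp5 (37.1 CPM), Sgk1 (162.3), Zbtb16 (22.5), Cdkn1a (20.2) and Sult1a1 (13.3).

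Between genotypes no member moved past its spread. No member passed an adjusted p of 0.05 in edgeR's quasi-likelihood test, where 0 of 15453 genes did (0.0%), and DESeq2 called 6 genes (0.03%) of which none was a member. At an unadjusted p below 0.05 the count was 0 of 10 members against 7.66% of all genes. An exact permutation test over the 495 splits of the animals gave p = 0.388 to 0.939 for the members, where 0.00202 is the smallest p these splits allow and 7.23% of all genes were below 0.05. No member had separate ranges in the 2 genotypes, which 0.492% of all genes had. The fold changes ran from -0.25 (Sgk1) to 0.12 (Sult1a1) on the log2 scale. Their 95% intervals differed in what they leave room for, from -0.12 to 0.10 for Nr3c1 to -0.82 to 0.33 for Sgk1, so a change of Sgk1 of the size of its interval was not detectable with this spread between animals.

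Females and males were compared in the same way, with genotype in the model. The count was 0 of 10 members at an unadjusted p below 0.05 in edgeR's test, beside 7.20% of all genes, and 13 genes (0.0841%) passed the adjusted threshold. Leaving out 1 animal gave 0 or 1 of 10, the 1 being Sult1a1 without control 4, control 11 or control 13 and Hsd11b1 without STAT3 KO 6. Sult1a1 came nearest, lower in females by a log2 fold change of -0.45 ± 0.23 (SE, adjusted p = 0.722, edgeR). Without STAT3 KO 6, the male at 13.3 CPM, it was -0.15 ± 0.11 (SE, adjusted p = 0.722, edgeR). DESeq2 gave 1 of 10 members an unadjusted p below 0.05, Sult1a1 (adjusted p = 0.764), beside 5.5% of all genes. The exact permutation test left 0 of 10 members below 0.05, beside 6.86% of all genes. No member had separate ranges in the sexes, as 0.362% of genes had. The exact permutation test for Sult1a1 gave p = 0.110 over 420 splits within genotypes, with a smallest possible p of 0.00476. Zbtb16 followed with -0.28 ± 0.20 (SE, adjusted p = 0.782, edgeR), and with -0.13 ± 0.18 (SE, adjusted p = 0.924, edgeR) without control 4.

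The difference between genotypes was then set side by side in the 2 sexes. Within females, the 4 STAT3 KO mice were all below both controls for 4 of the 10 genes, Fkbp5, Tsc22d3, Sgk1 and Sult1a1, which held for 7.95% of all genes, and all above them for 0 of 10, which held for 14.4%. Within males, the 4 STAT3 KO mice were all above both controls for 2, Pdk4 and Sult1a1, which held for 6.52% of all genes, and all below them for 0 of 10, which held for 2.86%. Sgk1 was at 98.1 and 157.8 CPM in control females and at 51.7 to 82.5 CPM in KO females, while control males were at 69.0 and 83.2 CPM and KO males at 70.5 to 162.3 CPM. Female controls were thus the higher group for Sgk1, whereas KO males reached above the male controls. Tsc22d3 was at 157 and 165 CPM in control females against 126 to 150 CPM in KO females, and at 128 and 133 CPM in control males against 123 to 156 CPM in KO males. Sult1a1 was at 5.81 and 5.95 CPM in control females against 3.93 to 4.97 CPM in KO females, and at 5.06 and 5.11 CPM in control males against 5.34 to 13.3 CPM in KO males. It was the one member whose genotypes were apart in both sexes and in opposite directions, as were 0.692% of all genes.

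The interaction of genotype and sex was below an unadjusted p of 0.05 for 4 of 10 members in edgeR's quasi-likelihood test, where 5.49% of all genes were, but for none after adjustment, where 0 of 15453 genes were (0.0%) and DESeq2 called 2 genes, neither of them a member. Expressed as the log2 fold change in females minus that in males, it was -1.44 ± 0.41 for Sgk1 (SE, unadjusted p = 0.00373, adjusted p = 0.898, edgeR). For Tsc22d3 it was -0.36 ± 0.12 (SE, unadjusted p = 0.0112, adjusted p = 0.898, edgeR). Pdk4 had -0.49 ± 0.20 and Sult1a1 -0.98 ± 0.42 (SE, adjusted p = 0.907 for both, edgeR). All 4 have the same sign, with 2 control animals in each sex behind them. The 4 genes were read in the same animals, so their shared sign is not a count of independent observations. Leaving out 1 animal gave 2 to 6 members below 0.05, 2 without control 3, control 4 or control 11 and 6 without STAT3 KO 8, beside 3.58% to 6.98% of all genes. The adjusted threshold was then passed by 0 to 37 genes, the 37 without control 11, and by no member. Control 3 is a female and STAT3 KO 6 a male, and without both animals 3 of 10 members were below 0.05, beside 3.55% of all genes. The interaction of Sgk1 was then -0.78 ± 0.34 and that of Sult1a1 -0.57 ± 0.22 (SE), while Hsd11b1 joined them with -0.55 ± 0.21 (SE, adjusted p = 0.9999 for each, edgeR). Tsc22d3, at -0.25 ± 0.13 (SE, unadjusted p = 0.0787, edgeR), and Pdk4, at -0.20 ± 0.20 (SE, unadjusted p = 0.349, edgeR), were above 0.05 and smaller than with all animals.

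**Figure D2:**
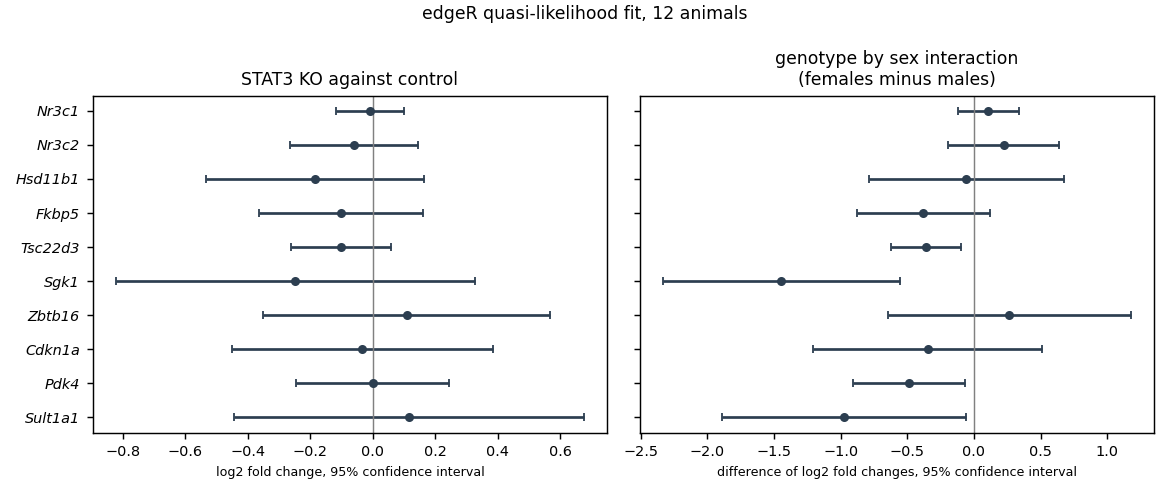
Fitted differences for the 10 genes with 95% confidence intervals, on the log2 scale. STAT3 KO against control (left, 12 animals) has each interval across 0, and the genotype by sex interaction (right) lies below 0 with its whole interval for Tsc22d3, Sgk1, Pdk4 and Sult1a1, none of which passed the adjusted threshold.

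**Figure D3:**
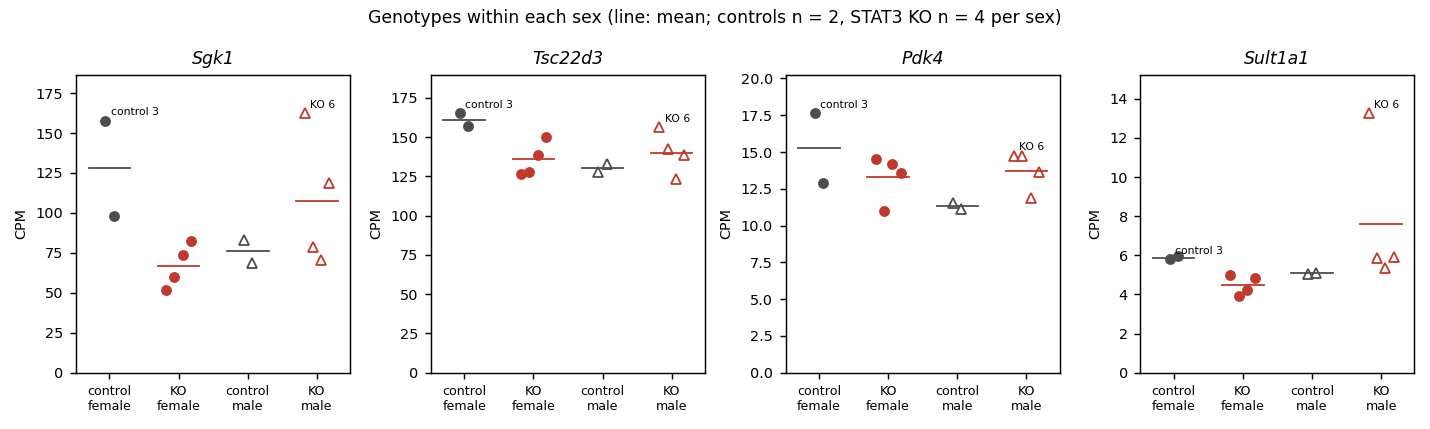
CPM (vertical axis, from 0) of the 4 genes with an unadjusted interaction p below 0.05, in control and STAT3 KO females (circles) and males (triangles), with lines at the group means (n = 2 controls and n = 4 KO mice per sex). Control 3, a female, and STAT3 KO 6, a male, are the highest animals for Sgk1, at 157.8 and 162.3 CPM.

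Members were next compared with one another across the 12 animals, over 45 pairs, with log2 CPM and 2-sided permutation tests. Among the responsive genes Pearson r was positive in 20 of 21 pairs over the 12 animals (median 0.57, -0.10 to 0.84). The 2 receptors and Hsd11b1 were positively related to one another (r = 0.42 to 0.70, 3 of 3 pairs) and negatively to the responsive genes in 21 of 21 pairs (median -0.46, -0.69 to -0.10). These pairs share libraries and members, so their number is not a count of independent observations.

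After adjustment over the 45 pairs, 4 pairs were below 0.05, each with Sgk1. Fkbp5 and Sgk1 had r = 0.82 (permutation p = 0.00044, adjusted p = 0.0198) and Spearman's rho = 0.74 (permutation p = 0.00803, adjusted p = 0.145). Tsc22d3 and Sgk1 had r = 0.79 (permutation p = 0.00188, adjusted p = 0.0282) and rho = 0.76 (permutation p = 0.00543, adjusted p = 0.145). Sgk1 and Sult1a1 had r = 0.72 (permutation p = 0.00187, adjusted p = 0.0282) and rho = 0.71 (permutation p = 0.0129, adjusted p = 0.145). Sgk1 and Cdkn1a had r = 0.76 (permutation p = 0.00429, adjusted p = 0.0483) and rho = 0.73 (permutation p = 0.0103, adjusted p = 0.145). By rank none of the 4 passed. With each genotype's mean removed none passed either, the smallest adjusted p being 0.0589, while r stayed about as large, at 0.82, 0.78, 0.75 and 0.77 in the same order. The largest r was that of Fkbp5 and Sult1a1 (r = 0.84, permutation p = 0.00865, adjusted p = 0.0741; rho = 0.59, permutation p = 0.0487, adjusted p = 0.243).

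These relations rested in part on 2 animals, STAT3 KO 6 and control 3. Leaving out the 2 animals farthest from the median of the first gene of each pair, r was 0.59 for Fkbp5 and Sgk1, 0.73 for Tsc22d3 and Sgk1, 0.61 for Sgk1 and Sult1a1 and 0.34 for Sgk1 and Cdkn1a, and none passed after adjustment. The animals left out were control 13 and control 3 for Tsc22d3 and Sgk1, and STAT3 KO 6 and control 3 for the other named pairs. Without STAT3 KO 6 and control 3 the median r of the 21 responsive pairs was 0.21, with 16 positive. Leaving out STAT3 KO 6 alone gave a median of 0.45 with 18 of 21 positive. For the receptors and Hsd11b1 with the responsive genes the median moved from -0.46 to -0.13 without STAT3 KO 6 alone (17 of 21 pairs negative) and to -0.03 without both animals (11 of 21). In the other 10 animals Sgk1 had r = 0.59 to 0.61 with Fkbp5, Tsc22d3 and Sult1a1, and Zbtb16 had r = 0.64 with Cdkn1a (permutation test, adjusted p = 0.642 for each). Fkbp5 had r = -0.02 with Cdkn1a and -0.35 with Pdk4 there.

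**Figure D4:**
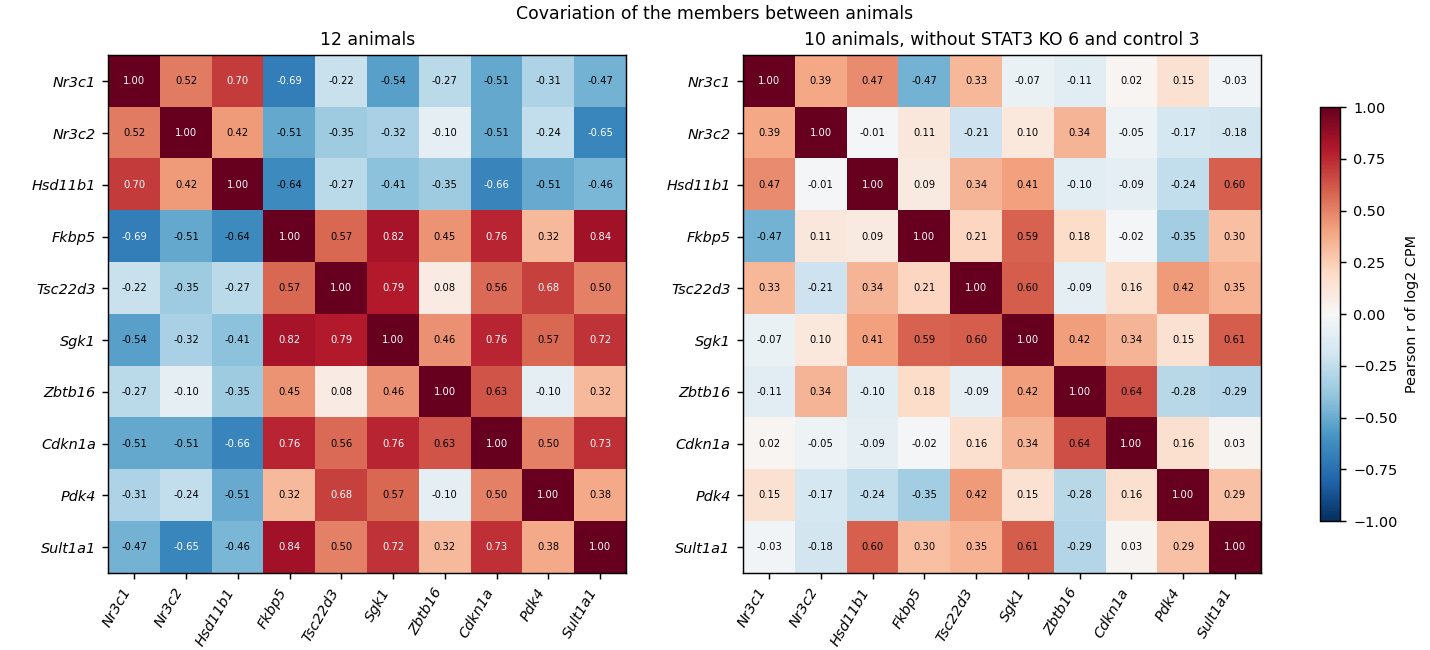
Pearson r of log2 CPM for each pair of the 10 genes, over 12 animals (left) and over the 10 animals without STAT3 KO 6 and control 3 (right), from blue at -1 to red at 1. The block of responsive genes has a median r of 0.57 on the left and 0.21 on the right, and the negative block with Nr3c1, Nr3c2 and Hsd11b1 (median -0.46) fades to a median of -0.03.

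To place each animal, the 7 responsive genes were turned into z scores and averaged. STAT3 KO 6 had the highest mean, 1.85, with 7 of 7 genes above their own mean, and control 3 had 1.04 with 6 of 7. The lowest were STAT3 KO 7 at -0.82, STAT3 KO 5 at -0.76 and control 11 at -0.60, and the other 7 animals lay between -0.59 and 0.29. Either genotype was thus found near both ends of the order.

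STAT3 KO 6 also stood apart in genes that are no members. Its marker sums were the lowest of the 12 animals for astrocytes (1719 CPM, others 1759 to 2007) and oligodendrocytes (10812 CPM, others 11101 to 14844) and the highest for endothelial cells (319 CPM, others 226 to 312). The astrocyte genes had a median r of -0.63 with the mean z score and 1 of 6 was at -0.7 or below, beside 1.13% of all genes, Aqp4 at -0.80. Aldh1l1 and Slc1a2 went the other way, both at 0.10, and Aldh1l1 was highest in STAT3 KO 6 (90.1 CPM, others 73.8 to 88.7). Without both animals the median was -0.12. Of 5 blood genes only Alas2, the erythroid enzyme of heme synthesis, had counts, at 19.1 CPM in STAT3 KO 6 and 1.84 to 4.94 CPM in the others. The acute-phase gene Lcn2 was at 14.1 CPM in STAT3 KO 6, at 6.19 CPM in control 13 and at most 0.242 CPM in the others. Control 3 had the second lowest astrocyte sum (1759 CPM) and the second lowest serotonergic sum (1024 CPM, all animals 871 to 1374). Of the serotonergic markers, Slc6a4 went the other way, since control 3 was the highest control at 315 CPM. The cerebellar sum of control 3 was the highest of the controls (195 CPM, KO mice 71.6 to 451). Marker genes varied with the groups as well, with no gene of the 12 lists passing after adjustment (edgeR). At an unadjusted p below 0.05, which 7.66% of all genes reached between genotypes, 2 of 6 astrocyte, 2 of 6 forebrain and 1 of 6 oligodendrocyte markers were lower in STAT3 KO mice. In the same comparison 3 of 6 ependymal, 2 of 6 cerebellar, 2 of 5 choroid plexus and 1 of 6 meningeal markers were higher. Between sexes, beside 7.20% of all genes, 6 of 6 cerebellar and 2 of 6 meningeal markers were higher in females, and 1 of 6 serotonergic markers and Alas2 were lower. The other lists had 0 in either comparison. The part of these differences in the covariation, in Zbtb16 and in the comparisons of genotype and sex was not tested.

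The remaining genes of the pathway were described against the mean z score, since they had no part in it. Of 24 other genes known to be induced by glucocorticoids, 23 passed the filter on low counts, and all but Lcn2 are counted here. This list was chosen with earlier results of these data known, so the shares of all genes set beside it are a description and no test. A positive r was found for 22 of 23, with a median of 0.66, where 48.9% of all genes were positive and the median was -0.01. For 7 of 23 the r was at least 0.7, which 0.855% of 15443 genes reached. They were Xdh (xanthine dehydrogenase, r = 0.90), Nfkbia (the inhibitor of NF-kB, 0.89), the transcription factor Cebpd (0.88), the lipid droplet protein gene Plin4 (0.87), the phagocytic receptor Mertk (0.86), the arrestin-domain gene Arrdc2 (0.72) and Errfi1 (0.72), a feedback inhibitor of EGF receptors. Without STAT3 KO 6 and control 3 the score still had a positive r with 22 of 23, with a median of 0.51, and 5 of 23 reached 0.7, beside 0.589% of all genes. With genotype means removed 10 of 23 did, beside 1.31%. When STAT3 KO 6 and control 3 were left out, Xdh stayed at 0.88, Nfkbia at 0.82, Plin4 at 0.78, Cebpd at 0.76 and Mertk at 0.73.

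Xdh was at 19.4 CPM in STAT3 KO 6 and 19.4 CPM in control 3, and at 9.53 to 16.6 CPM in the other animals. Nfkbia was at 29.1 and 26.3 CPM in these 2 animals and at 18.02 to 26.9 CPM in the others. Plin4 was at 24.97 CPM in STAT3 KO 6 alone and at 6.14 CPM in control 3, with the others at 1.83 to 7.29 CPM. The 2 animals with high Sgk1 were therefore alike in Xdh and unlike in Plin4. The metallothionein gene Mt1 was likewise high in STAT3 KO 6 alone, at 274 CPM against 187 CPM in control 3 and 147 to 200 CPM in the others, and its r fell from 0.68 to 0.03 without the 2 animals.

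Other well-known targets followed the members less closely over 12 animals. The clock gene Per1 had r = 0.24 and the Krüppel-like factor gene Klf9 0.16, and Per1 was lower in STAT3 KO 6 (44.8 CPM) than in control 3 (59.2 CPM). Without STAT3 KO 6 the r of Per1 was 0.56 and that of Klf9 0.68, so their low values rested on this animal, and without both animals they were 0.51 and 0.53. The phosphatase gene Dusp1 had r = 0.34 and the transcription factor gene Cebpb -0.06, and without STAT3 KO 6 they had 0.53 and -0.45. Between genotypes 0 of 23 were called and 1 was below an unadjusted p of 0.05, fewer than the 7.66% of all genes, namely Klf9 with a log2 fold change of -0.21 ± 0.086 (SE, adjusted p = 0.615, edgeR). Between sexes Glul, the glutamine synthetase gene of astrocytes, was the one gene of 23 below an unadjusted p of 0.05, where 7.20% of all genes were, at -0.16 ± 0.056 in females against males (SE, adjusted p = 0.601, edgeR). The range of Klf9 was 71.2 to 108.0 CPM over the 12 animals.

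**Figure D5:**
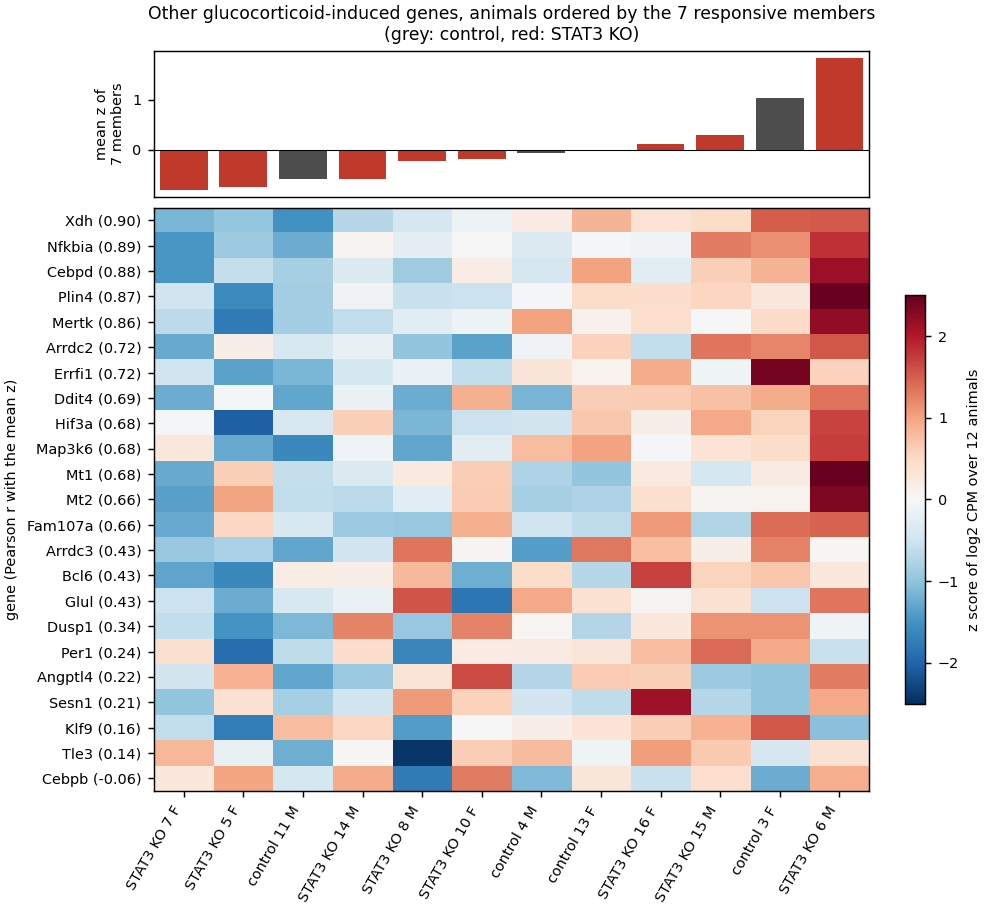
Mean z score of the 7 responsive genes (bars, top) and z scores of log2 CPM of 23 other glucocorticoid-induced genes (rows, with Pearson r in brackets), with animals ordered by the bars, controls in grey and STAT3 KO mice in red. Xdh (0.90), Nfkbia (0.89) and Cebpd (0.88) rise along the order, whereas Cebpb (-0.06) does not. Per1 (0.24) and Klf9 (0.16) have a higher r without STAT3 KO 6 (0.56 and 0.68), and Cebpb has a lower one (-0.45). Plin4 and Mt1 are highest in STAT3 KO 6.

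Genes that carry or assist the receptor gave 3 other pictures. The 11 chaperone and co-chaperone genes of the receptor complex (Hsp90ab1, Fkbp4, Stip1 and others) all had a positive r with the score, with a median of 0.52 and none at 0.7, but the median was 0.05 without the 2 animals. Fkbp4, the counterpart of Fkbp5 that favours transport of the receptor, was at 242 CPM in STAT3 KO 6, 228 CPM in control 3 and 209 to 244 CPM in the others. The 11 coregulators had a median r of -0.06 (-0.04 without the 2 animals), and 1 of 11, Ncoa1, was below an unadjusted p of 0.05 between genotypes, near the 7.66% of all genes, at a log2 fold change of -0.09 ± 0.042 (SE, adjusted p = 0.646, edgeR). The 8 measured genes of steroid metabolism and transport had a median r of -0.29 with 2 of 8 positive, and without the 2 animals the direction turned, to a median of 0.31 with 7 of 8 positive. Hsd11b2, the enzyme that inactivates corticosterone, was at or near the floor, at most 0.177 CPM, whereas Hsd11b1 was at 15.0 CPM or more. The 9 measured immediate early genes, a sign of recent neuronal activity, had a median r of 0.17 with 7 of 9 positive, and 0.47 with 9 of 9 positive without the 2 animals. Fos was at 12.6 CPM in STAT3 KO 6 and 36.5 CPM in control 3 within a range of 6.45 to 39.7 CPM. None of these 4 lists had a gene called between genotypes or sexes.

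Among all other genes tested, the 10 whose log2 CPM was most like the mean z score over 12 animals were Capn10 (r = 0.92), Pla1a (0.92), Hip1 (0.91), Xdh (0.90), Pnpla2 (0.89), Nfkbia (0.89), Phf23 (0.88), Cebpd (0.88), Plin4 (0.87) and Pla2g3 (0.87). Of these 10, 4 were on the list of other induced genes, and 5 of the first 25 were, Mertk being the eleventh. That list, chosen with earlier results of these data known, holds 23 of the 15443 genes compared. Pnpla2 encodes the lipase that starts the breakdown of stored fat and Pla1a and Pla2g3 encode secreted phospholipases. Their levels were 32.8 to 44.1 CPM for Pnpla2 and 0.991 to 1.75 CPM for Pla1a, with STAT3 KO 6 the highest for both. Without STAT3 KO 6 and control 3, r stayed between 0.69 and 0.88 for 9 of the 10 and was 0.26 for Pla2g3.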

How the data were processed

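RNA of the DR of 12 mice was sequenced by the authors as single reads, 1 library per animal, and mapped to mm10 with STAR (2.5.0b in the submitters' processing notes). The deposited files hold raw counts per gene symbol, not normalised. The read counter, annotation and use of strand are not given in the sources used here, so reads shared with an overlapping or antisense gene cannot be told apart. The last 2 lines of each file, reads on no single gene, were left out (84.2% to 86.1% of reads were on genes). No library was a copy of another, with differences of 5.24 times counting noise or more over 66 pairs. Genotype, sex and animal number come from the labels.

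Printed CPM are counts scaled to the library's total on genes. Tests used edgeR 4.0.16 (R 4.3.3) with TMM, filterByExpr (10 counts per library, 15 in total), quasi-likelihood and Benjamini-Hochberg adjustment over 15453 genes at 0.05, for genotype, for sex with genotype as a covariate, and for their interaction. The SE is the log2 fold change divided by the square root of the F statistic. Exact 2-sided permutation tests and correlations (100000 permutations) used log2 CPM with a prior count of 2, in Python 3.11.15. The score is the mean z of the 7 responsive genes over 12 animals. P values measure the spread between these animals. Alternatives were DESeq2 1.42.0, RLE, other filters, sex as a covariate, a prior count of 0.5, centring by group, and leaving out each animal. Leaving out both STAT3 KO 6 and control 3 was chosen after seeing the data. The members and gene lists were chosen with earlier results of these data known. Named were all members, Stat3, Slc6a4 and Tph2, pathway genes past a threshold and the 10 genes most like the score. Other list genes (Mt1, Per1, Dusp1, Cebpb, Fkbp4, Fos, Hsd11b2, Lcn2, Alas2, Aqp4, Aldh1l1, Slc1a2) and Hsp90ab1 and Stip1 were named after their values were seen. Scripts were tested on simulated data. Sequence is from RefSeq, positions of genes from GENCODE vM21.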

Additional observations from a re-analysis of the deposited data

Results flagged for a closer look

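In the STAT3 KO group (n = 8), STAT3 KO 6 was farther from its nearest neighbour than Dixon's 95% critical value allows for 2 genes. Gaps and ranges were taken on the log2 CPM scale. For Fkbp5 the gap to the next animal was 0.611 of the group's range (37.1 CPM, the others 21.0 to 26.2 CPM). For Sult1a1 it was 0.667 (13.3 CPM, the others 3.93 to 5.90 CPM). A total of 20 groups were examined, of which chance marks about 1, and both marks fell on the same animal. The genotype difference of Sult1a1 and that of Pdk4 went opposite ways in the sexes, with each KO female below the mean of the control females and each KO male above the mean of the control males. The interaction, females minus males, was -0.98 for Sult1a1 and -0.49 for Pdk4 on the log2 scale, and neither passed after adjustment in edgeR's test.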

How the results depend on the processing

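No member was called for genotype, sex or interaction under any setting run. Genes called between genotypes were 6 with DESeq2 (main 0) and 0 to 1 when each animal was left out, the 1 without control 4. Genes called between sexes were 24 with DESeq2 and 4 with at least 10 counts in every library (main 13). The 4 pairs below 0.05 fell to 0 with genotype means removed, with means of genotype and sex removed, in STAT3 KO mice alone, without the 2 farthest animals and without both STAT3 KO 6 and control 3. In the first 3 of these r of the 4 pairs stayed at 0.75 to 0.82, 0.64 to 0.88 and 0.76 to 0.85. Leaving out 1 animal gave 0 to 10 pairs, with 0 without control 3 or STAT3 KO 6, 1 without control 11 or STAT3 KO 7, 8 without control 13 and 10 without STAT3 KO 5. Members with a permutation p below 0.05 between genotypes numbered 0 to 1 when each animal was left out, and the 1, without STAT3 KO 6, its highest animal, was Fkbp5, where 6.68% of all genes were below 0.05. The cause of these shifts was not tested.

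Log2 fold changes of 7 members by genotype turned sign in some setting, that of Sgk1 among them. Pdk4 (main -0.00025) was 0.00017 with DESeq2, 0.00082 with RLE, 0.0024 with no filter, 0.0028 with at least 10 counts in every library, 0.0063 with sex as a covariate and 0.15 without both animals. Without both animals Zbtb16 was -0.0091 and Sult1a1 -0.12. Leaving out each animal, the genotype values ran from -0.036 to 0.021 for Nr3c1, -0.13 to 0.016 for Nr3c2, -0.31 to -0.087 for Hsd11b1, -0.21 to -0.045 for Fkbp5, -0.16 to -0.031 for Tsc22d3, -0.44 to 0.0499 for Sgk1 (above 0 without control 3), -0.0073 to 0.38 for Zbtb16, -0.19 to 0.11 for Cdkn1a, -0.073 to 0.17 for Pdk4 and -0.15 to 0.19 for Sult1a1. The values for sex ran from -0.045 to 0.024 for Nr3c1, -0.13 to -0.011 for Nr3c2, -0.26 to -0.047 for Hsd11b1, 0.028 to 0.12 for Tsc22d3, 0.0033 to 0.17 for Pdk4, -0.17 to 0.0199 for Fkbp5, -0.42 to 0.0054 for Sgk1, -0.27 to 0.065 for Cdkn1a, -0.37 to -0.13 for Zbtb16 and -0.54 to -0.15 for Sult1a1. The interaction kept its sign, from -1.74 to -1.05 for Sgk1, -0.41 to -0.30 for Tsc22d3, -0.69 to -0.24 for Pdk4 and -1.11 to -0.56 for Sult1a1. The members had more than 3 counts in each library, and an effect of depth or of the number of controls was not tested. No paired analysis was possible because each animal's number is its own.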
